A study of Caenorhabditis elegans with 2 samples.

Results

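The X chromosome held 333 of the 1400 peaks of the transcription factor ELT-1 in Caenorhabditis elegans embryos. They were every X peak of the list labelled optimal, which the submitters thresholded with the irreproducible discovery rate (IDR), on genome build ce11. IDR is a measure of reproducibility between replicates, but 4 of the X peaks overlapped no peak in the list of replicate 2. The comparison was with the 1044 peaks of the 5 autosomes. Another 23 peaks lay on the mitochondrial chromosome and were left out, so 1377 nuclear peaks entered the comparisons.

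ELT-1, a zinc finger factor of the GATA family, sets the epidermal fate in the embryo and recognises WGATAR, where W stands for A or T and R for A or G. Hermaphrodite embryos carry a pair of X chromosomes, and a dosage compensation complex lowers expression from both copies. The X is poor in genes expressed in the germline and carries several epidermal regulators, among them the GATA factor gene elt-3 and the nuclear receptor gene nhr-25.

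Binding was mapped by ChIP-seq, which sequences DNA precipitated with a protein, in hermaphrodite mixed-stage embryos of strain OP354, taken whole. The strain has the genotype unc-119(tm4063) III; wgIs354, where wgIs354 is an inserted transgene for ELT-1 with GFP and FLAG at its C-terminus. The 2 biological replicates formed 1 group, so every worm carried the transgene and the unc-119 allele, the peaks were those of the tagged protein, and no group without the tag was analysed here. Precipitation was with anti-GFP according to the descriptions of both samples, although their antibody entry says elt-1. The read depth was unknown. Peaks and genes are not replicates, so the p-values and intervals given here cover counting error only.

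Below are the 201 bp around 8 X summits, a summit being the highest point of a peak, read from the plus strand of the WBcel235 genome of RefSeq, the sequence of build ce11. Capitals mark WGATAR on either strand (a minus-strand match reads as TATC between its outer bases), and overlapping matches were all counted. The first 4 belong to the X peaks of ranks 1, 2, 3 and 6 by strength, 3 of them outside promoter windows. The peaks of ranks 4 (F09A5.3) and 5 (mdl-1), with 0 and 3 WGATAR matches, are not shown. The summits at the epidermal genes dpy-3, nhr-25 and elt-3 follow, and then that of kynu-1, a strong peak with 0 WGATAR matches. The kynu-1 window holds CGATAA, which is not a WGATAR match and is left unmarked.
sprr-1 intron, chrX:15470074-15470274: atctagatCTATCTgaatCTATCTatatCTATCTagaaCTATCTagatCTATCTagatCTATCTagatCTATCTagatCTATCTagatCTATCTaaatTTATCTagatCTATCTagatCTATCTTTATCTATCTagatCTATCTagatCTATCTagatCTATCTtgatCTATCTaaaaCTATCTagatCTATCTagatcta
sdz-19 intergenic, chrX:12500779-12500979: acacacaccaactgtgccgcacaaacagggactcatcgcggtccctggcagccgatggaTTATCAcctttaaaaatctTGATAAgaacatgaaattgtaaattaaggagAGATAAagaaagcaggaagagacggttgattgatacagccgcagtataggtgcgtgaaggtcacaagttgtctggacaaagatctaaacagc
nhr-17 intergenic, chrX:12671724-12671924: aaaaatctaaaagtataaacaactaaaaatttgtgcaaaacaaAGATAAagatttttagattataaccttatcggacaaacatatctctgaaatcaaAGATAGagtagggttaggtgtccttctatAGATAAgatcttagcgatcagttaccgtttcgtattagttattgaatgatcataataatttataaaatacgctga
hsp-3 promoter, chrX:6092607-6092807: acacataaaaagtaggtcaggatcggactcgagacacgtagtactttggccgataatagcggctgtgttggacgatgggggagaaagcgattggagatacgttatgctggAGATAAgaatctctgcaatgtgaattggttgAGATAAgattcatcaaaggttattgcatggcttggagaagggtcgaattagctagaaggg
dpy-3 promoter, chrX:2145723-2145923: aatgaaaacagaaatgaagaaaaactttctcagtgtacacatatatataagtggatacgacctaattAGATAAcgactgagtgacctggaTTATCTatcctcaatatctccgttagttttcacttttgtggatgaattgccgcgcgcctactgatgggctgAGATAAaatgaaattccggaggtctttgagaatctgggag
nhr-25 intron, chrX:13011976-13012176: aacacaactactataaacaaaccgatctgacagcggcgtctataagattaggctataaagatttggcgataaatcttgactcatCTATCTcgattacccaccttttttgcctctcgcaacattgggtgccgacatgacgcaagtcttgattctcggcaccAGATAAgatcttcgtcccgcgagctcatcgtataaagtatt
elt-3 downstream, chrX:13941296-13941496: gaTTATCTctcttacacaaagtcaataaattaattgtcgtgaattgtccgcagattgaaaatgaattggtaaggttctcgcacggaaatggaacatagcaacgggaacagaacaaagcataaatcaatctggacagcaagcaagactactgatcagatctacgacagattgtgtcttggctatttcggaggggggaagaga
kynu-1 promoter, chrX:6109473-6109673: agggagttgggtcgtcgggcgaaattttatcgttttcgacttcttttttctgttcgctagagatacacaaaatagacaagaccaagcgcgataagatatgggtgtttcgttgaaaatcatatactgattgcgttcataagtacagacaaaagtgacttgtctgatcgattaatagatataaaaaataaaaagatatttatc

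The sprr-1 window is a tandem repeat whose unit contains CTATCT, and it held 20 matches, most of them separated by short spacers, the highest number at any nuclear summit. The hsp-3 window shows 2 copies of AGATAA, each followed by ga. The elt-3 window shows a single TTATCT close to its left edge, far from the summit at its centre.

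ELT-1 peaks were denser on X than on any autosome. X carried 18.8 peaks per Mb, while the autosomes together carried 12.6 and ranged from 10.7 on V to 15.6 on II. X peaks were 24.2% of the nuclear peaks (95% Wilson interval 22.0 to 26.5%) on 17.7% of the nuclear bases. The rate per base was 1.49 times the autosomal one (95% interval 1.31 to 1.68; exact binomial test, two-sided, p = 1.35e-09). The strongest 1400 peaks of each replicate's own relaxed list, which includes background peaks and was the input to IDR, showed the same direction. The ratio was 1.46 in replicate 1, with 329 peaks on X, and 1.39 in replicate 2, with 315.

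X was poorer in genes per Mb than any autosome. It had 154 protein-coding genes per Mb, below the autosomal range of 188 to 239. This gave 122 peaks per 1000 genes, against 60.5 on the autosomes, a ratio of 2.01 (1.78 to 2.28; exact binomial p = 1.66e-25). GC content was 35.2% on X and 35.5% on the autosomes. WGATAR was somewhat more frequent on X, at 2.57 matches per kb, than on the autosomes, at 2.33, and X lay above the autosomal range of 2.18 to 2.46. Counted per 1000 WGATAR matches, X had 7.32 peaks and the autosomes 5.42, a ratio of 1.35 (1.19 to 1.53; exact binomial p = 3.55e-06). The ratios per gene and per WGATAR match were chosen after the peak densities were seen.

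The X share was highest among the top-ranked peaks of each list and lower in the later ranks. In the pooled relaxed list, X held 24.2% of the nuclear peaks ranked 1 to 1400 by signal, the deposited value of each peak, whose unit is not stated. Its share was 18.6% of those ranked 1401 to 2800, and 17.4%, 15.7% and 16.1% in the later classes, near or below its 17.7% of the bases. The ranks beyond 1400 together gave 16.3% (odds ratio 1.64, Fisher's exact test, two-sided, p = 2.18e-13). In replicate 1 the X share was 23.9% in the first class and 17.3% in the rest (odds ratio 1.504, Fisher's exact p = 1.26e-09). Its next classes were at 19.7% and 18.6%. In replicate 2 it was 22.9% and 17.6% (odds ratio 1.40, Fisher's exact p = 9.90e-07), with 19.9% at ranks 1401 to 2800 and 17.4% in the class after it. These rank comparisons were also chosen after the densities were seen, and the relaxed lists share reads with the IDR list. The first pooled class had the same counts as the IDR list, 333 X peaks of 1377 nuclear ones. The pooled test therefore restates the X share of the IDR list and gives no separate support.

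**Figure D1:**
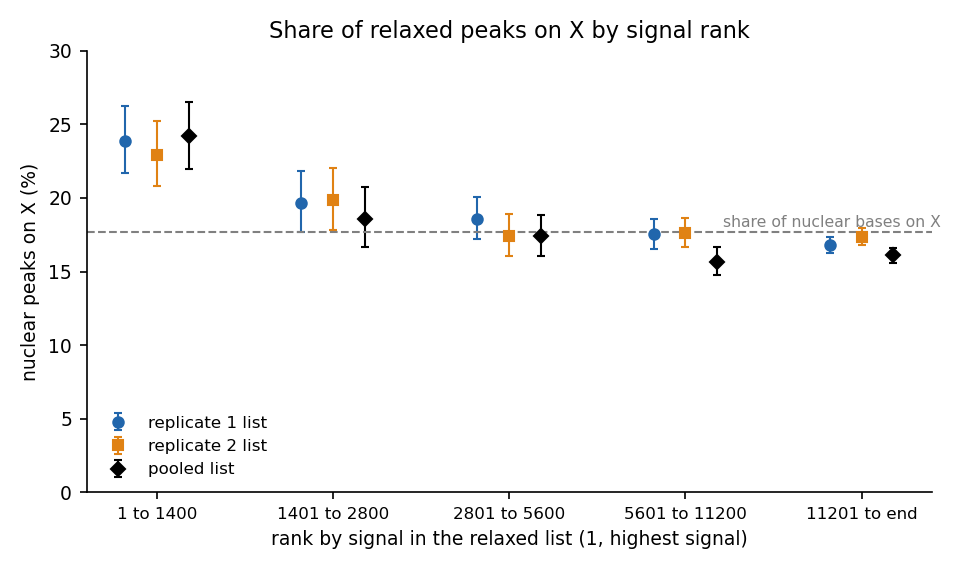
Share of nuclear peaks that lie on X (vertical axis, percent) by rank class of signal (horizontal axis) in the relaxed lists of replicate 1, replicate 2 and the pool. Points are shares, bars are 95% Wilson intervals and the dashed line is the X share of nuclear bases, 17.7%. The first rank class lies highest in all 3 lists, at 22.9 to 24.2%. That of the pool has the same counts as the IDR list.

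The strength of the peaks was compared next. The median signal was 39.8 on X (quartiles 32.9 and 56.2, range 28.0 to 468) and 39.2 on the autosomes. Of the X peaks 170 (51.1%) exceeded the nuclear median, against 518 (49.6%) of the autosomal peaks, with no difference past the threshold (odds ratio 1.06, Fisher's exact p = 0.66). Among the strongest 50% of the nuclear peaks alone, X peaks lay above the median of that subset more often (odds ratio 1.46, Fisher's exact p = 0.0419). When the nuclear peaks were cut into 5 classes of equal size by signal, X held 20.3%, 25.4%, 24.0%, 25.1% and 26.2% of them from the lowest class to the highest.

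Peaks were spread along X without the central concentration of the autosomes. With each chromosome cut into 3 equal lengths, the middle one held 121 X peaks (36.3%), against 469 autosomal peaks (44.9%; odds ratio 0.700, Fisher's exact p = 0.00623). Each autosome lay higher than X, between 42.3 and 46.6%. The left and right lengths of X held 32.1% and 31.5% of its peaks. Genes were also less central on X, with 35.8% of protein-coding genes in the middle length and an autosomal range of 36.0 to 40.6%. The difference in position did not pass the threshold among the strongest 50% of peaks (odds ratio 0.811, Fisher's exact p = 0.282).

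At a finer scale X was uneven. The 17 complete 1-Mb bins held between 6 and 29 peaks, with a median of 19. The third bin from the left end was the fullest, with 29 peaks on 135 genes, and it includes the 4 summits nearest to igcm-3, a gene for a cell adhesion molecule of the immunoglobulin superfamily. The second bin was the emptiest, with 6 peaks on 154 genes and a strongest signal of 45.3. The bin that holds sprr-1 had 24 peaks and the 468 of that gene. With each chromosome cut into 10 equal lengths, the second one from the left had 25.96 peaks per Mb on X, against 6.42 on the autosomes. Both end lengths of X had 11.3 peaks per Mb, against 9.21 and 9.09 on the autosomes.

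**Figure D2:**
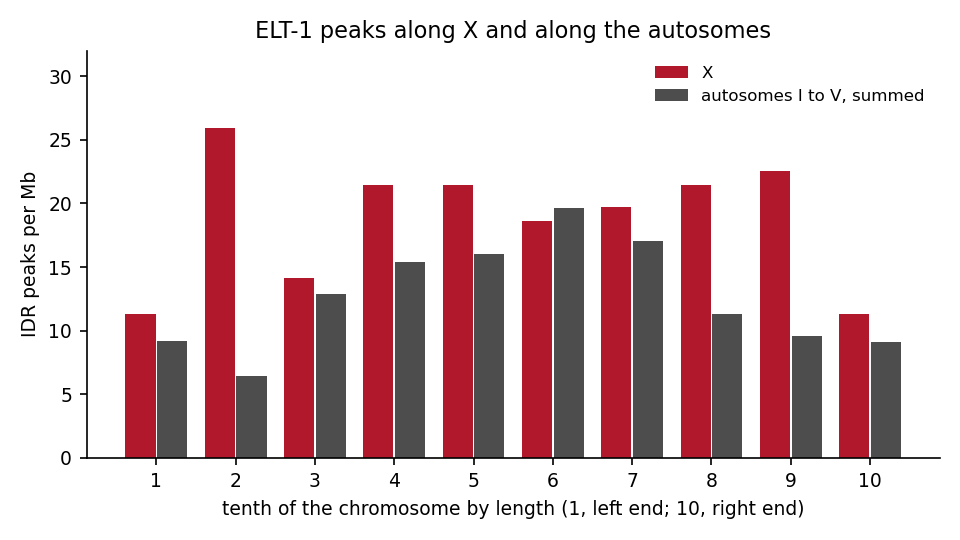
ELT-1 peaks per Mb (vertical axis) in each of 10 equal lengths of the chromosome from left to right (horizontal axis), for X and for autosomes I to V summed. Bars are single values from the IDR list without error; X lies at 11.3 in both end lengths and between 14.1 and 25.96 in the others, while the autosomes are highest in the sixth length, at 19.6.

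Summits were assigned to 5 location classes. Promoter windows began 1000 bp before an annotated 5′ end of a protein-coding gene and ended 200 bp past it, and the other summits were intergenic, intronic, in coding sequence or in another exon. Of the X peaks 143 (42.9%) were promoter, 94 (28.2%) other intergenic, 64 (19.2%) intronic, 16 (4.805%) in coding sequence and 16 in another exon. The autosomal shares were 45.5%, 26.6%, 18.1%, 3.93% and 5.84%, and no class differed past the threshold (odds ratios 0.813 to 1.24, Fisher's exact, adjusted p = 0.685 for each).

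The same shares on X came from different amounts of sequence. Promoter windows covered 21.8% of X, below the autosomal range of 24.3 to 30.1%, and other intergenic sequence covered 30.3%, above the range of 17.4 to 26.9%. Per Mb of promoter sequence X had 37.0 peaks, while no autosome exceeded 25.2, a ratio of 1.74 (1.43 to 2.10; exact binomial, adjusted p = 1.57e-07). Per Mb of intron X had 14.3 peaks and the autosomes 5.95 to 13.7, a ratio of 1.69 (1.25 to 2.25; exact binomial, adjusted p = 0.00128). Other intergenic sequence held 17.5 peaks per Mb on X, inside the autosomal range of 12.8 to 19.4, with a ratio of 1.11 (0.868 to 1.41; exact binomial, adjusted p = 0.489). The promoter ratio exceeded the intergenic one 1.57 times (95% interval 1.15 to 2.14; exact conditional test, two-sided, adjusted p = 0.00647). The intron ratio exceeded it 1.52 times (1.03 to 2.23; the same exact test, adjusted p = 0.0265). These 2 contrasts were chosen after the ratios were seen.

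Coding sequence gave a ratio of 2.10 (1.10 to 3.83; exact binomial, adjusted p = 0.0271), from 16 peaks on X and 41 on the autosomes. It did not pass the threshold with either other promoter window (exact binomial, adjusted p = 0.0532 and 0.137) or among the strongest 50% of peaks (adjusted p = 0.338). Other exons gave 1.09 (0.586 to 1.91; exact binomial, adjusted p = 0.773), and 1.77 (adjusted p = 0.0367) from the list of replicate 2 alone.

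**Figure D3:**
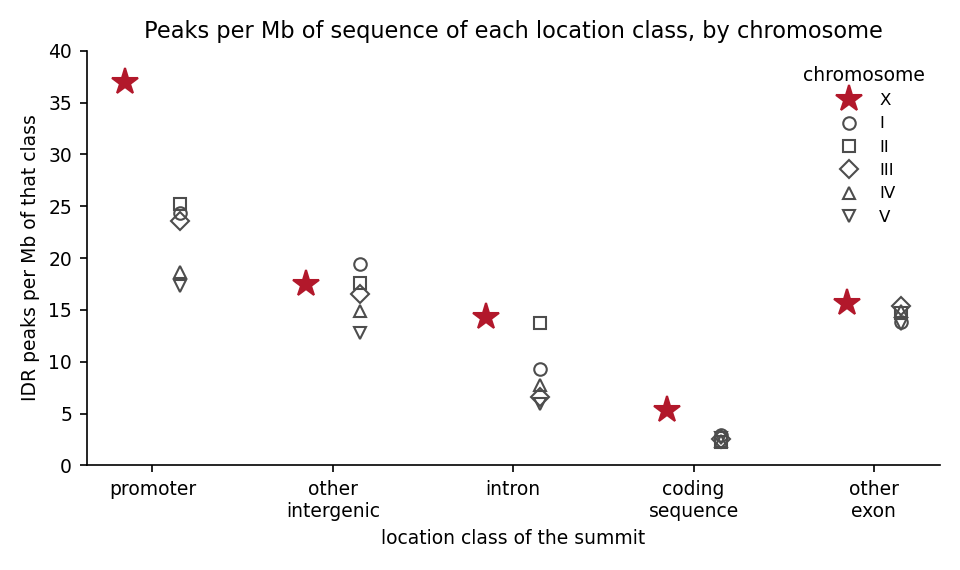
IDR peaks per Mb of sequence of each location class (vertical axis) on X (filled star) and on each autosome (open symbols), by class (horizontal axis). Points are single values from the IDR list; X lies at 37.0 in promoters and 14.3 in introns, above every autosome, and at 17.5 inside the autosomal range in other intergenic sequence.

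The strongest X peak lay in an intron of sprr-1, with a pooled signal of 468, with 314 (rank 3) in replicate 1 and 155 (rank 2) in replicate 2. Its interval was listed with a further summit of 136, and both summits share one peak in each replicate. The next was intergenic near sdz-19 (185), with signals of 121 (rank 22) in replicate 1 and 64.8 (rank 15) in replicate 2. The third lay 3970 bp upstream of nhr-17, a nuclear hormone receptor gene (179), with 125.9 (rank 20) and 58.9 (rank 21) in replicates 1 and 2. The strongest promoter peaks on X were those of F09A5.3 (154), of the divergent pair hsp-3 and C15H9.5 (151), and of C06E2.5 (121). hsp-3 encodes an endoplasmic reticulum chaperone. At F09A5.3 the summit lay 4 bp upstream of the 5′ end and had 0 WGATAR matches within 100 bp, although CGATAA was present there.

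The 25 strongest X peaks, from 91.2 to 468, comprised 8 promoter, 5 intergenic and 12 intronic summits, and 22 of them had WGATAR. Each of the 25 overlapped one of the 1400 strongest peaks of both replicates. The intronic ones included gst-42, a glutathione S-transferase gene (133), nhr-25 (119.4), sax-3, the gene of the axon guidance receptor Robo (117.5), and igcm-3 (116). A further intronic summit lay in unc-2, a calcium channel gene (113), with 0 WGATAR matches but with CGATAA within 100 bp. Others lay in scd-1 (110.4 and 110.1), in mob-2 (99.7), in F26A10.2 (91.2) and in sma-9, whose zinc finger protein acts in body size signalling (97.1). Promoter summits were found at gmap-1, dpy-3 (112), kynu-1, a kynureninase gene of tryptophan breakdown (106), gly-12 (95.1) and tatn-1, a tyrosine aminotransferase gene (93.2). Intergenic ones lay near mdl-1, a gene of the MAD family (154), nhr-71 (115.2) and aagr-4 (111.5). tatn-1 had the widest gap in rank of these 25, with 35.7 (rank 357) in replicate 1 and 65.2 (rank 14) in replicate 2.

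At the lower end, the 3 weakest X peaks had pooled signals of 28.2 near F20B6.9, 28.0 at the promoter of dve-1 and 28.0 in an intron of ist-1. Replicate 1 gave ist-1 a signal of 14.3 (rank 2258) and replicate 2 gave it 9.96 (rank 1622), outside the 1400 strongest peaks of both. X held 15 of the 50 strongest nuclear IDR peaks and 28 of the strongest 100, beside 24.2% of all nuclear IDR peaks.

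A summit lay in the promoter window of 149 of the 2731 protein-coding genes on X, which is 5.46%, and of 560 of 17242 autosomal genes, which is 3.25%. The odds ratio was 1.72 (Fisher's exact p = 5.51e-08), and X lay above the autosomal range of 2.58 to 3.96%. A peak in the windows of more than 1 gene counted for each, which applied to 10 of the 143 X promoter peaks. Assigned by the nearest 5′ end, the 333 peaks fell to 272 genes, of which 43 had several summits. nhr-25, nhr-3, igcm-3, sma-9, ftt-2 (a 14-3-3 protein gene) and gap-2 (a Ras GTPase-activating protein gene) had 4 each. The nhr-3 summits of 63.1 and 30.4 lay 203 bp apart in overlapping intervals and shared the same peak in each replicate. So did the summits of 91.1 and 38.2 near F57G12.1. With overlapping intervals merged, X had 330 regions. Summits lay a median of 1017 bp from the nearest 5′ end, and 12 of the 94 intergenic ones lay more than 5000 bp away.

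Close pairs of peaks were counted next. Another summit lay within 2000 bp of 56 X summits (16.8%) and of 206 autosomal ones (19.7%), with no difference past the threshold (odds ratio 0.822, Fisher's exact p = 0.262). In the list of replicate 2 alone, X summits had such a neighbour less often (odds ratio 0.618, Fisher's exact p = 0.00797). The median distance to the next summit was 7950 bp on X and 11770 to 20541 bp on the autosomes. The 56 summits formed 26 groups, and the largest spanned 3137 bp around the 5′ end of sma-9 with 4 summits of 31.5 to 97.1. These counts include the overlapping intervals at sprr-1, nhr-3 and F57G12.1.

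Among the gene families, nuclear hormone receptors had the most occupied promoters on X. The family was taken as the genes named nhr, which leaves out receptors with other names such as sex-1. A promoter summit was found at 6 of 23 X members (26.1%) and at 28 of 246 autosomal members (11.4%), beside 5.46% of all X genes and 3.25% of all autosomal genes. The 6 were nhr-3 (63.1), nhr-48 (62.1), nhr-32 (57.3), nhr-137 (40.3), nhr-1 (36.6) and nhr-25 (35.3). Including peaks outside promoters, 21 X peaks (6.31%) were nearest to 11 receptor genes, with signals of 30.4 to 179, against 57 autosomal peaks (5.46%) nearest to 36 receptor genes. The lists were chosen with results of these data known, so their counts are a description.

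The epidermal lists had few members on X, and their counts are given beside 5.46% of all X genes and 3.25% of all autosomal genes. Apart from the cuticle collagens, these lists are too short on X to be set against those shares. Of 6 junction and apical matrix genes 3 had a promoter summit, namely lpr-3, a lipocalin gene (81.8), sym-1, a leucine-rich repeat protein gene (67.1), and dlg-1, a Discs large junction protein gene (36.5). The autosomal count was 4 of 17. A summit of 63.0 lay 1724 bp upstream of another apical matrix gene, let-4, in an intron of C44H4.4. Cuticle collagens had 3 occupied members of 30 on X, dpy-3 (112), dpy-7 (71.0) and col-174 (30.1), against 13 of 146 on the autosomes. The replicates gave dpy-3 signals of 82.5 (rank 44) and 38.8 (rank 82), and dpy-7 signals of 45.3 (rank 210) and 26.3 (rank 209), in replicates 1 and 2. Hedgehog-related genes had 1 occupied member of 10, wrt-2 (46.7), and patched-related genes 1 of 3, ptr-4 (59.3), against 3 of 49 and 3 of 23 on the autosomes.

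Of the 2 listed epidermal regulators on X, 1 had a promoter summit, against 2 of 14 on the autosomes. These counts are too small to set against 5.46% and 3.25% of all genes. Including peaks outside promoters, 5 X peaks were nearest to the 2 genes, and 21 autosomal peaks were nearest to 7 genes of the list. nhr-25 had 4 nearest summits, as many as igcm-3, sma-9, nhr-3, ftt-2 and gap-2. Its intronic summit had a pooled signal of 119.4, with 64.6 (rank 90) in replicate 1 and 49.0 (rank 38) in replicate 2, and 3 further summits of 85.5, 55.5 and 35.3 lay at or upstream of its 5′ end. The summit of 55.5 was uneven between replicates, with 49.2 in replicate 1 and 4.18 (rank 10181) in replicate 2. elt-3 had no summit in its promoter window. A peak of 35.1 (X, 13941221 to 13941570) lay 180 bp past the gene, with 31.05 (rank 492) in replicate 1 and 11.1 (rank 1282) in replicate 2. The nearest summit to elt-2, the GATA factor gene of the intestine, lay 18105 bp from the gene (54.7). Of the 4 GATA factor genes on X, 0 had a promoter summit, against 1 of 7 on the autosomes, counts too small to set against 5.46% and 3.25% of all genes.

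Genes that set or read the X dose were described one by one. Of 6 genes on X for dosage compensation or for the X signal, the count of X chromosomes that determines sex, 2 had a promoter summit, and of 8 on the autosomes 0 had one, beside 5.46% of all X genes and 3.25% of all autosomal genes. They were fox-1, an RNA-binding protein gene (35.2), and sex-1, a nuclear receptor gene (29.7), both X signal elements. Replicates 1 and 2 gave sex-1 signals of 16.9 (rank 1708) and 13.1 (rank 923). The nearest summit to xol-1, the switch gene that the X signal controls, lay 4812 bp away (38.3). The nearest to sdc-2, whose protein brings the dosage compensation complex to X, lay 30384 bp away. The nearest to lin-15B lay 12697 bp away, and the nearest to the microRNA gene let-7 lay 43524 bp away, at hch-1.

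The remaining families and marker lists are given as counts, beside 5.46% of all X genes and 3.25% of all autosomal genes. Homeobox ceh genes had 0 of 18 and neuropeptide genes 0 of 34, against 1 of 45 and 4 of 106 on the autosomes. Chemoreceptors had 1 of 34 on X, srv-7 (70.7), against 4 of 1277. Ribosomal protein genes had 1 of 2 on X, rpl-11.2 (34.2), against 14 of 75. The marker lists had 0 occupied on X of 3 neuronal, 6 body wall muscle, 5 intestinal and 3 pharyngeal genes. On the autosomes 0 were occupied of 20, 12, 11 and 9. Outside promoters, 1 X peak each was nearest to a neuronal (31.4), a muscle (37.5) and an intestinal marker (31.7), and 0 to a pharyngeal one. The autosomal counts of such peaks were 2, 0, 1 and 0. Most of these lists are too short on X to be set against 5.46% of all X genes.

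WGATAR was concentrated at X summits as at autosomal ones. It lay within 100 bp of 228 X summits (68.5%, Wilson interval 63.3 to 73.2%) and of 670 autosomal summits (64.2%), with no difference past the threshold (odds ratio 1.21, Fisher's exact p = 0.165). In 201-bp flanks whose centres lay 1000 bp left or right of a summit and that met no IDR peak, the share was 41.2% (264 of 641) beside X peaks and 39.3% beside autosomal peaks. Over all 201-bp windows of the chromosomes it was 38.3% on X and 35.1% on the autosomes. The odds of WGATAR at X summits were 3.10 times those at X flanks (Fisher's exact p = 5.38e-16), and 2.77 times on the autosomes. A Breslow-Day test, which is not an exact test, found no difference between these odds ratios past the threshold (p = 0.484).

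Peaks with and without a site were both denser on X. The rate per base was 1.58 times the autosomal one for the 228 X peaks with WGATAR (1.36 to 1.84; exact binomial p = 8.51e-09). It was 1.31 times for the 105 X peaks without it (1.04 to 1.63; exact binomial p = 0.0165). This split was chosen after the densities were seen. The difference between the kinds of peak is the Fisher's exact test above, which did not pass the threshold.

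**Figure D4:**
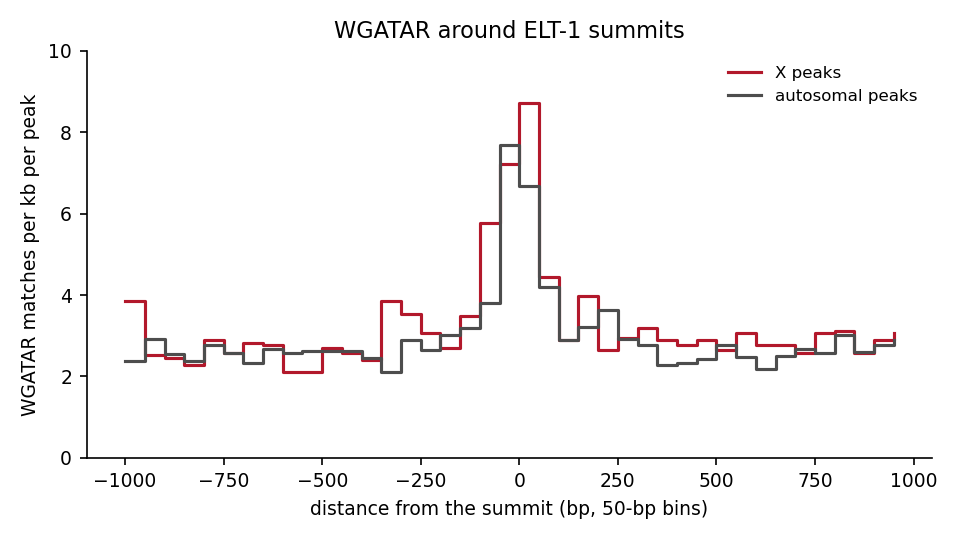
WGATAR matches per kb per peak (vertical axis) in 50-bp bins by distance from the summit (horizontal axis, bp), for X peaks and for autosomal peaks. Lines are counts over all peaks of each kind without error; the X line reaches 8.71 matches per kb in the bin that begins at the summit and 7.21 in the bin before it.

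Over the 5 signal classes from the lowest to the highest, the share of X peaks with WGATAR was 55.4%, 58.6%, 65.2%, 72.5% and 87.5%. The autosomal shares were 54.1%, 58.7%, 63.2%, 66.0% and 79.8%. By class, 73.4% of intronic, 69.1% of other intergenic and 65.0% of promoter summits on X had a site. For promoter summits the autosomal share was 57.3%, and this difference was not tested.

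The single forms of the site were counted at summits and flanks, with other short motifs. Among the latter was CGATAA, which is not a WGATAR match. AGATAA, searched like all motifs here on both strands, was present at 42.6% of X summits and in 13.4% of X flanks, AGATAG at 18.6% and 6.55%, and CGATAA at 20.7% and 8.11%. TGATAA was present at 23.4% of X summits and in 21.2% of X flanks, and TGATAG at 11.7% and 9.20%. Autosomal summits held AGATAA in 40.2% of cases and autosomal flanks in 12.2%, while TGATAA was at 23.9% and 18.9%, and TGATAG at 9.004% and 9.24%. GAGAGA was found at 34.5% of X summits and at 35.2% of autosomal ones. Its share was 12.95% in X flanks and 13.2% in autosomal flanks. Its odds at X summits were 3.55 times those at X flanks. CGTCTC was found at 15.3% of X summits and at 20.9% of autosomal ones (odds ratio 0.685, Fisher's exact p = 0.0263, adjusted p = 0.210 over 8 motifs). Its share was 3.74% in X flanks and 6.63% in autosomal flanks. Its odds at X summits were 4.65 times those at X flanks. Concentration at X summits was therefore not limited to the forms of the site. GCGCAGG, part of the motif of recruitment sites of the dosage compensation complex, was present at 10 X summits (3.003%) and 16 autosomal ones (1.53%). That difference did not pass the threshold (Fisher's exact, adjusted p = 0.384). It was present in 1 of 641 X flanks and in 9 of 1992 autosomal flanks, and the summit-to-flank odds ratios did not differ past the threshold (Breslow-Day test, not an exact test, adjusted p = 0.739). It was present in 0.380% of all 201-bp windows of X and 0.383% of those of the autosomes. None of the 8 motifs differed past the threshold between X and autosomal summits.

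Support by each replicate was compared between X and autosomal peaks. One of the 1400 strongest peaks of replicate 1 overlapped 276 X peaks (82.9%) and 847 autosomal ones (81.1%; odds ratio 1.13, Fisher's exact, adjusted p = 0.517). One of replicate 2 overlapped 240 X peaks (72.1%) and 700 autosomal ones (67.0%; odds ratio 1.27, Fisher's exact, adjusted p = 0.137). Both held for 200 X peaks (60.1%) and 555 autosomal ones (53.2%; odds ratio 1.32, Fisher's exact p = 0.0315, adjusted p = 0.0944). None of the 3 differences passed the threshold after adjustment. A further 76 X peaks had the support of replicate 1 alone, 40 that of replicate 2 alone, and 17 had neither. For 4 X peaks no relaxed peak of replicate 2 overlapped at all, while replicate 1 had one for each.

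X peaks with the support of both replicates had the highest median signal, and a larger share of them carried a site. Support and pooled signal come from the same reads. Their median pooled signal was 51.7, and 74.5% had WGATAR. The median was 35.0 with 61.8% for replicate 1 alone, 31.4 with 57.5% for replicate 2 alone, and 29.8 with 52.9% for neither. The signals of the replicates correlated with a Spearman rho of 0.413 over the 329 X peaks found in both relaxed lists, and of 0.313 over 1024 such autosomal peaks. These are descriptions, since peaks within a library are not independent and the list was selected on the pooled signal.

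**Figure D5:**
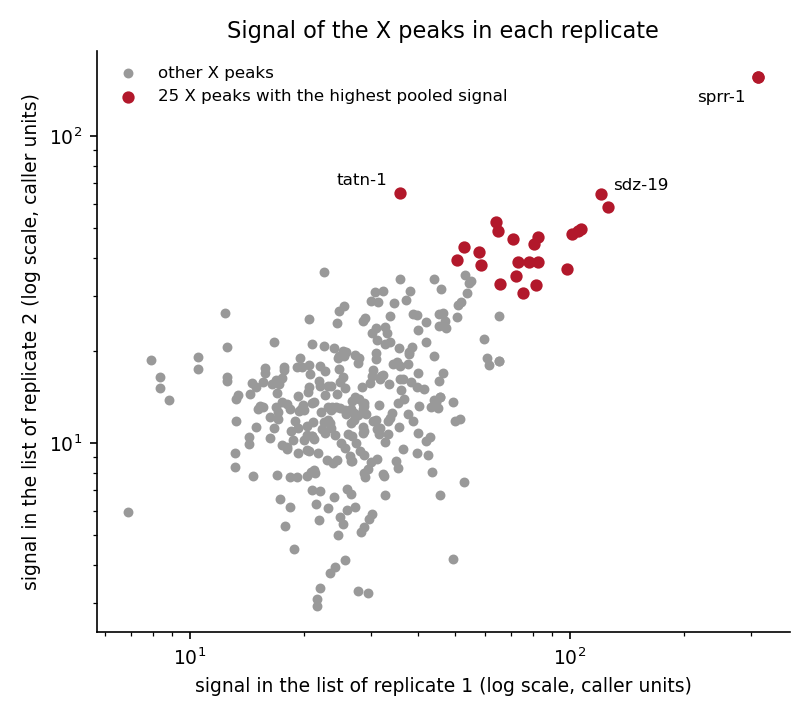
Signal of each X peak in the list of replicate 2 (vertical axis, log scale) against that in replicate 1 (horizontal axis, log scale), for the 329 X peaks found in both relaxed lists. Red points are the 25 X peaks of highest pooled signal; sprr-1 lies apart at 314 and 155, and tatn-1 lies to the left of the other red points at 35.7 and 65.2.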

How the data were processed

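Peak lists of ELT-1 ChIP-seq from 2 biological replicates of 1 group were used as deposited. Per the file headers and the text lists of files, the authors called a relaxed list for each replicate against a shared control set, another for the pool, and derived the IDR list from these. The signal of a peak is the value that the authors deposited, with no stated scale between lists. It was used to order, select and compare peaks inside one list. Signals of the 2 replicates are set side by side only as a description, and their sizes are not comparable between lists. For the aligner, peak caller and threshold of IDR, names and values are not given in sources used here. Replicate 1 and the pool each had 30000 relaxed peaks and replicate 2 had 26001. Depth was unknown, so precision could not be derived from it.

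Genes were the 19973 nuclear protein-coding genes of Ensembl release 115 with 29314 annotated 5′ ends. Overlap meant at least 1 bp. Fisher's exact test served for shares and an exact binomial test for rates, both two-sided, with Benjamini-Hochberg adjustment within each family and a threshold of 0.05. Computation used SciPy 1.17.1, statsmodels 0.14.6, pandas 2.3.3 and numpy 2.4.6 under Python 3.11.15. Only the tests of peak density, class density, position and signal were run on simulated peaks.

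The peaks and the 16 gene lists were chosen with earlier results of these data known. Named genes were those of the 25 strongest and 3 weakest X peaks, up to 4 occupied X members of each list by signal, and elt-3, elt-2, nhr-25, dpy-7, lin-15B, sex-1, xol-1, sdc-2 and let-7. The other 2 occupied nuclear receptor genes, let-4, C44H4.4, hch-1 and genes with several summits were named after their values were seen. The name pattern for chemoreceptors was corrected after values were seen. Leaving out a replicate meant using the other's strongest 1400 relaxed peaks in place of the IDR list.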

Additional observations from a re-analysis of the deposited data

How the results depend on the processing

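Of 102 alternative values for 19 tested results, 86 kept their direction and their side of the threshold, 4 lost the call, 3 gained one and 9 changed direction. The density ratio of X to autosomes ranged from 1.39 to 1.53 over 5 alternatives, that of promoters from 1.69 to 1.74 and that of introns from 1.49 to 2.23 over 6 each, and the odds ratio of occupied promoters from 1.63 to 1.75 over 5. All of these passed the threshold. The WGATAR odds ratio ranged from 1.09 to 1.34 over 6 and never passed. Without a replicate, the odds ratio for the share of peaks in other intergenic sequence ranged from 0.858 to 0.961 and that in other exons from 1.12 to 1.47. The density ratio for other intergenic sequence ranged from 0.873 to 1.00, that for other exons from 1.44 to 1.77, and the odds ratio for neighbours from 0.618 to 0.810. Among the strongest 50% of peaks, the odds ratio for coding sequence was 0.968, and the density ratios were 1.71 for coding sequence and 0.807 for other exons. The odds ratio was 0.811 for position in the middle length and 1.46 for signal in that subset. The coding density ratio was 1.93 with promoters from 500 bp upstream to 100 bp downstream and 1.79 with 2000 bp upstream. With neighbours counted to 5000 bp their odds ratio was 1.05. The cause of these changes was not tested. No paired analysis was possible because the series has 1 group. Unknown depth, 2 replicates and no untagged group analysed here limit the comparisons to counting error.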
